A study of Drosophila melanogaster with 3 samples.

Results

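Deep intron peaks are chromatin immunoprecipitation peaks whose summit lay inside a protein-coding gene, outside every annotated exon and more than 5000 bp from the nearest annotated start site of any gene. Among the peaks that the authors kept as reproducible, 291 met these conditions (7.63%, Wilson 95% interval 6.83% to 8.51%) and 3525 lay elsewhere. The authors' list was itself chosen by signal and by agreement between replicates. Within it the class was set by position alone, without the bases around the summit or the choice of host. The study recovered chromatin bound by CG6765, fused at its C terminus to enhanced green fluorescent protein (eGFP), from whole Drosophila melanogaster embryos of mixed sex collected between 0 and 24 h. Only 1 group was profiled, a transgenic line that stably expresses the fusion, in 3 biological replicates, so no genotype or treatment was compared. Nothing in the labels says that the replicates came from separate fly cultures, and their spread may be technical. The labels describe the immunoprecipitating antibody as anti-GFP in one place and as CG6765 in another. In whole embryos a peak shared by a few cells cannot be told apart from weaker binding in many.

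An intron is the part of a gene that is transcribed and then spliced out, and in long Drosophila genes much of the control DNA lies there. Enhancers inside introns bind transcription factors and act on a promoter that may be many kilobases away, often that of the gene that carries them. Long introns are a common feature of genes that encode developmental regulators, whose expression is set separately in many tissues.

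Peaks were ranked by the authors' signal value, which has no stated unit and is comparable only within a list. The thresholded peaks were exactly the strongest of the 30000 candidates called on the pooled replicates. The reference for the deep intron peaks was the 4572 pooled candidates of the same class that overlapped no thresholded peak. Each replicate has its own list of 30000 candidates, so ranks can be set side by side. The top set of a replicate is here its strongest peaks, as many as the thresholded list holds. Replicate 3 stands apart: its top set held 161 of the 291 deep intron summits (55.3%, summits within 100 bp), while that of replicate 1 held 207 (71.1%) and that of replicate 2 held 211 (72.5%). Distant peaks between genes showed the same, with 50.67% held by replicate 3, 68% by replicate 1 and 77.33% by replicate 2. The lists carry no read numbers. Sequencing depth is therefore unknown, and every interval covers only the counting of regions.

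The bases at the summits of the strongest deep intron peaks show how unlike each other these sites are. The summit and 50 bp on either side are given for 7 of the 10 strongest peaks off one autosomal arm, on the plus strand of dm6, positions counting from 1. The sites in tara, which encodes a nuclear cofactor linked to trithorax group function, and in Gug, which encodes the corepressor Atrophin, are rich in A and T. Sites in simj, which encodes a p66-type subunit of the Mi-2 nucleosome remodelling complex, and in crp, which encodes a basic helix-loop-helix factor, are more mixed. The site in Eip75B, an ecdysone-induced nuclear receptor gene, has the highest GC content of the 7.
tara, chr3R:16236903-16237003: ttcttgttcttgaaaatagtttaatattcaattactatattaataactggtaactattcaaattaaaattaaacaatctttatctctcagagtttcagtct
tara, chr3R:16236149-16236249: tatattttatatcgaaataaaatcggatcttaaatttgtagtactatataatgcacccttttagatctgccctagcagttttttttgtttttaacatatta
Gug, chr3L:8458291-8458391: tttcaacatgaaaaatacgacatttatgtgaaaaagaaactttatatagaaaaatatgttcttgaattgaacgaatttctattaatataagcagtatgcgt
CG32486, chr3L:3060739-3060839: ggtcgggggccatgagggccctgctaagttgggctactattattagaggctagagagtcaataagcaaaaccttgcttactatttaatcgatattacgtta
simj, chr3L:10683031-10683131: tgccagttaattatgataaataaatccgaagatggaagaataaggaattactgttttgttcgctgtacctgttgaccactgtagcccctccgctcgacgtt
crp, chr2L:16269552-16269652: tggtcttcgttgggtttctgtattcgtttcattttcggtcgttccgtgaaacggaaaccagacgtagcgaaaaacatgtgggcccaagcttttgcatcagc
Eip75B, chr3L:18019778-18019878: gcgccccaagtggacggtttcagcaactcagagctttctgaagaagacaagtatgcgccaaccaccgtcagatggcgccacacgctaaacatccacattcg
The GC content was 21.8% and 24.8% at the sites in tara and 23.8% in Gug, 43.6% in CG32486, 41.6% in simj, 47.5% in crp and 54.5% in Eip75B.

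The site in spen holds the word TGTTTAC or its reverse complement GTAAACA, the core of sites bound by Forkhead-class factors. This word was commoner in deep intron peaks than in candidates of the same class, though most peaks lack it, as described further on. Capitals mark it in the sequences. Sites with the word in CG13917 and S are added, and the 3 are examples, not a ranking of the peaks that hold it. The gene spen encodes a nuclear RNA-binding repressor, and S (Star) a membrane protein needed to export ligands of the EGF receptor. The gene S was chosen after its values were seen.
spen, chr2L:166683-166783: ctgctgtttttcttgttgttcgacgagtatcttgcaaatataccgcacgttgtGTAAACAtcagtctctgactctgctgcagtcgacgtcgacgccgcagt
CG13917, chr3L:1591828-1591928: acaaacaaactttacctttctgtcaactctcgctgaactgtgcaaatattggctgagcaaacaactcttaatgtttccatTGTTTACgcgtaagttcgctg
S, chr2L:1072348-1072448: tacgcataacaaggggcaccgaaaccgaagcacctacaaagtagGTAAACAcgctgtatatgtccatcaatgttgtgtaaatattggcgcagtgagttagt
The middle base of the word lay 6 bp from the summit in spen, 33 bp in CG13917 and 3 bp in S, where the word covers the summit.

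The 3 weakest deep intron peaks off the same arm, given for contrast, lay in Eip75B, in kibra, which encodes an upstream component of the Hippo growth pathway, and in Dyrk2, which encodes a protein kinase. Their signal was 134.9, 134.7 and 134.7, beside 775.1 at the strongest site in tara.
Eip75B, chr3L:17956386-17956486: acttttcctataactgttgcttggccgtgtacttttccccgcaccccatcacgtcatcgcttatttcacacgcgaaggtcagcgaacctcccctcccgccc
kibra, chr3R:14711605-14711705: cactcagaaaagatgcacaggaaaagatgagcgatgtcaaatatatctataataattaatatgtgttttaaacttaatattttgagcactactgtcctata
Dyrk2, chr2L:14221585-14221685: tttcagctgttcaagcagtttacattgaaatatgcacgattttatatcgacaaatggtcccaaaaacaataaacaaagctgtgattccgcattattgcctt
None of these 3 carries the word, and their GC content was 55.5% in Eip75B, 28.7% in kibra and 34.7% in Dyrk2, against 21.8% to 54.5% at the 7 strong sites.

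The strongest deep intron peak lay in the first intron of sbb, also called brakeless, which encodes a nuclear corepressor of early embryonic patterning and later tissue growth. On dm6 it spans 18336914 to 18337337 of chromosome arm 2R, 20098 bp from the nearest start site, with a signal of 1164. Among 30000 candidates it ranked 58 in replicate 1, 20 in replicate 2 and 14 in replicate 3, so all replicates placed it near the top of their lists. The second, in tara, had a signal of 775.1 and ranked 59, 97 and 262. The third, in CG32486, had 723 and ranked 134, 133 and 115, the narrowest spread of the first 5. A peak in simj with a signal of 715.1 ranked 174, 745 and 100, and one in crp with 710.8 ranked 305, 177 and 41. In these the replicates gave clearly unequal ranks, yet none fell out of a top set.

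A sixth peak, with a signal of 705.2, lay where 3 annotated genes overlap: Hr3, which encodes an ecdysone-response nuclear receptor, CG12912 and CG46321. The remainder of the 15 strongest lay in Lrch, which encodes a leucine-rich repeat protein with a calponin homology domain (669.5), Gug (639), Eip75B (553), tara again (551.2), simj again (541.9), dnr1 (495), spen (472), CG13917 (463.3) and the overlapping genes Mi-2 and Su(Tpl) (456.4). Mi-2 encodes the ATPase of the remodelling complex that simj also serves. The gene dnr1 encodes a RING-domain repressor of caspase and immune signalling, and Su(Tpl) a subunit of an elongation factor complex for RNA polymerase II. Of these 15 peaks, 13 lay in the first intron of a transcript of the host and the others, in crp and spen, did not.

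**Figure D1:**
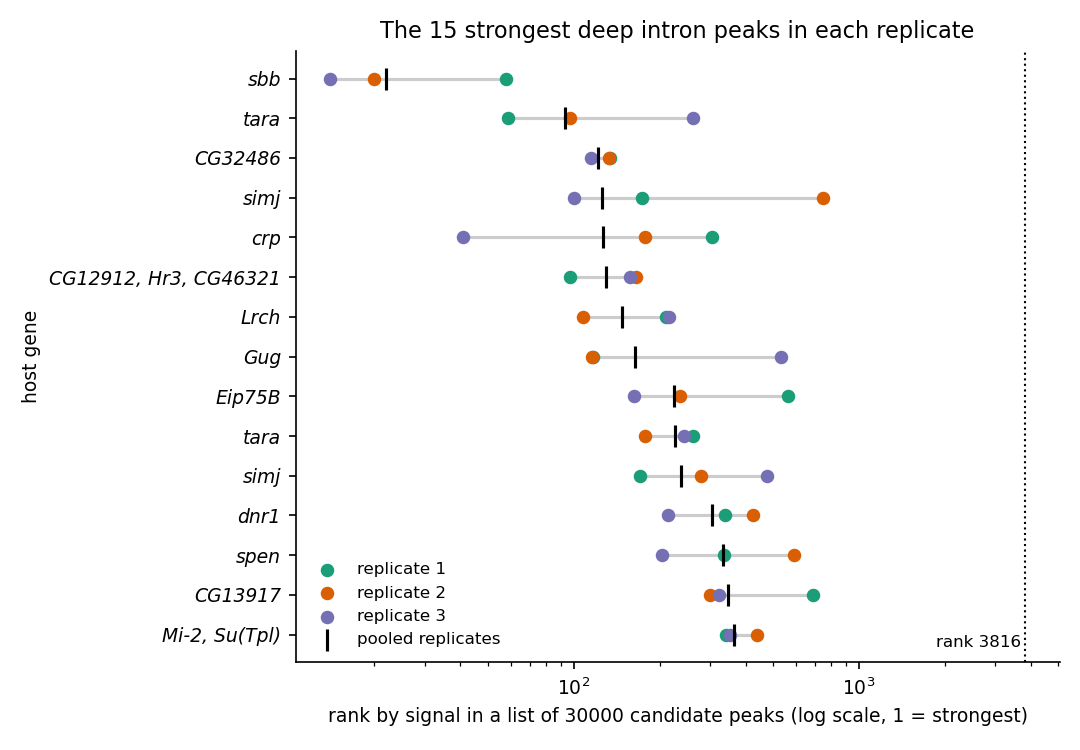
Rank of the 15 strongest deep intron peaks in the candidate list of each replicate (coloured points) and of the pooled replicates (black bar), on a log axis where 1 is the strongest of 30000 candidates, with host genes from top to bottom in order of pooled signal. All points lie left of the limit of the top sets (dotted line), and the widest spreads are those in crp (41 to 305) and simj (100 to 745).

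Most deep intron peaks were weaker than these. Their signal ran between 134.7 and 1164 with a median of 177, below the median of 193.2 over all thresholded peaks. They supplied 1 of the 25 strongest thresholded peaks, 2 of the 100 strongest and 23 of the 500 strongest. The median distance to a start site was 8252 bp and the greatest 49817 bp, and the median exon-free stretch around a summit was 15306 bp. The nearest start site belonged to the host for 180 peaks (61.9%) and to another gene for 111, and 13 peaks lay in more than 1 host. Just inside the 5000 bp limit were a peak in tara at 5005 bp (signal 404.3) and one in bun, which encodes a growth regulator of the TSC22 family, at 5008 bp (423.4). Just outside it were a peak in ed, which encodes the adhesion protein Echinoid, at 4997 bp (173.2) and one at 4985 bp (142.9) where Sesn, which encodes the stress-response protein Sestrin, overlaps CG46429.

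Deep intron candidates passed the threshold less often than candidates elsewhere. Over all classes 13.2% of the candidates compared had passed. In deep introns 291 of 4863 passed (5.98%, Wilson 95% interval 5.35% to 6.69%), against 3525 of 24036 elsewhere (14.7%), an odds ratio of 0.37 (two-sided Fisher's exact test over regions, p = 6.8e-70, 95% interval 0.327 to 0.419). Against only the candidates directly below the threshold, as many as had passed, the odds ratio was 0.620 (Fisher's exact test, p = 2.7e-09). Regions are not replicates, and the p-values over regions in this and the following comparisons measure only the counting of regions. The replicates gave the same direction in their own lists. Deep introns held 8.52%, 7.70% and 6.76% of the top sets of replicates 1, 2 and 3 (7.66% ± 0.879, SD, n = 3), against 17.99%, 16.96% and 16.6% of the remaining peaks (17.2% ± 0.722). The groups of values did not overlap, and the exact sign-flip test gave p = 0.25, the smallest that 3 replicates allow.

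The passing share within introns was lower farther from start sites. It was 16.5% of intron candidates between 500 and 1000 bp, 13.1% up to 2000 bp, 9.32% up to 5000 bp, 6.86% up to 10000 bp, 4.81% up to 20000 bp and 5.39% beyond, where 32 of 594 passed. The last 3 values are those of deep introns, and the intervals of the last 2 overlap. Candidates between genes at 5000 to 10000 bp passed in 4.46% of cases, up to 20000 bp in 4.19% and beyond in 4.91%, where 8 of 163 passed. Against all candidates between genes over 5000 bp from a start site, deep introns passed more often (5.98% against 4.42%, odds ratio 1.38, 95% interval 1.06 to 1.78, adjusted p = 0.0164, Fisher's exact test with Benjamini-Hochberg adjustment over 3 comparisons). Against intron candidates 501 to 5000 bp from a start site they passed less often (5.98% against 12.1%, odds ratio 0.46, Fisher's exact test, adjusted p = 5.4e-31), and likewise against promoter candidates within 500 bp (5.98% against 24.6%, odds ratio 0.195, adjusted p = 5.7e-186). The remaining candidates, in none of these classes, passed in 6.17% of cases (372 of 6026), close to deep introns, and were not tested apart.

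**Figure D2:**
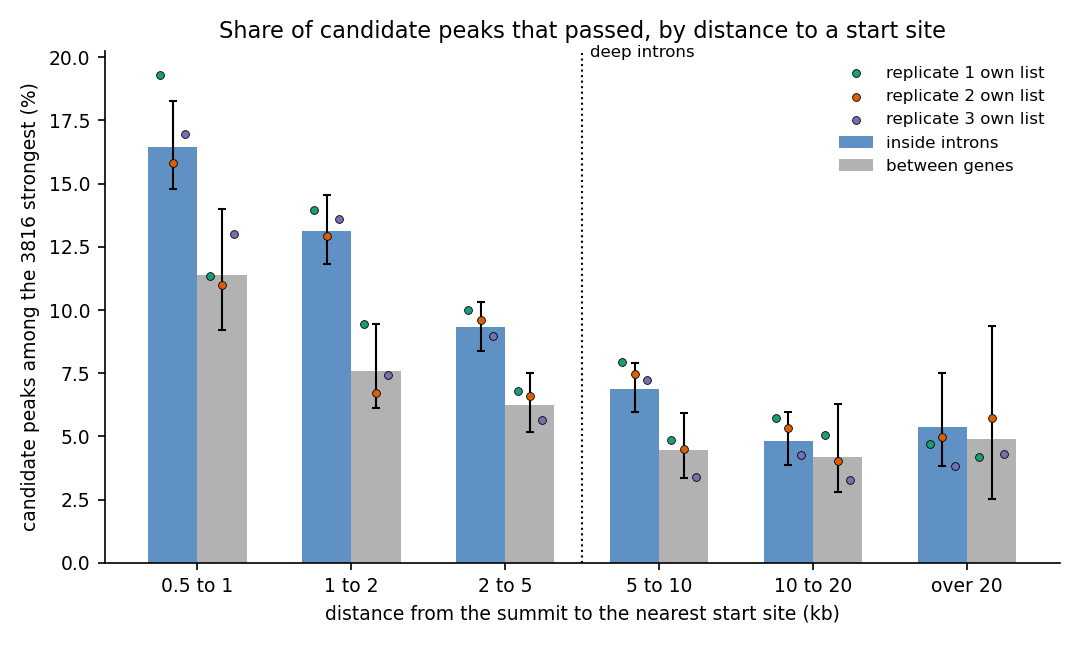
Share of candidate peaks that passed the threshold in the pooled replicates (bars, with Wilson 95% intervals) or were in the top set of each replicate's own list (points), by distance of the summit to the nearest start site, inside introns and between genes. Deep introns are the 3 blue bars right of the dotted line, at 6.86%, 4.81% and 5.39%, beside 16.5% in introns at 0.5 to 1 kb.

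Deep intron sequence made up 20.6% of the chromosome arms analysed (27575.9 kb) and held 10.55 thresholded peaks per Mb, against 33.16 per Mb elsewhere. All candidates together, passed or not, were spread more evenly, at 176.3 per Mb in deep introns and 226.1 per Mb elsewhere. Part of the deep intron sequence held nothing: 22 genes with at least 50 kb of it had no candidate at all, and they made up 20.4% of its length. The longest of them was Myo81F with 1904.7 kb, a gene singled out after its values were seen. No mask for repetitive or poorly mapped sequence was applied, and its part in these empty genes was not tested. Without these 22 genes the density was 13.26 deep intron peaks per Mb. By arm the density was 13.92 per Mb on 2L, 12.11 on 2R, 10.72 on 3L, 8.21 on 3R and 10.45 on X, and 0 peaks lay in the 255.1 kb of chromosome 4, which allows up to 14.46 per Mb.

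Support by all replicates was lower for deep intron peaks than for peaks nearer to genes' starts, and the call depended on replicate 3, on the size of the top sets and on the summit distance. All 3 replicates held 98 of 291 deep intron peaks in their top sets (33.7%), against 41.6% of the 914 thresholded intron peaks at 501 to 5000 bp (odds ratio 0.714, 95% interval 0.541 to 0.941, adjusted p = 0.0289, Fisher's exact test) and 41.7% of the 2164 promoter peaks (odds ratio 0.71, adjusted p = 0.0275). The 75 thresholded peaks between genes over 5000 bp from a start site were held in 24 cases (odds ratio 1.08, 95% interval 0.627 to 1.86, Fisher's exact test, adjusted p = 0.891). Without replicate 3 the odds ratios of support by both others were 0.911 against intron peaks nearer to starts and 1.06 against promoter peaks (Fisher's exact test, adjusted p = 0.897 for each). Exactly 2 replicates held 102 deep intron peaks, and replicate 3 was the missing one for 58 of these. A further 81 were held by 1 replicate and 10 by none, and in the full lists of 30000 candidates all replicates held 240 (82.5%). In those full lists the shares were 78.3% of intron peaks nearer to starts and 76.4% of promoter peaks, so the direction was the opposite one, short of the threshold (odds ratios 1.30 and 1.45, Fisher's exact test, adjusted p = 0.203 and 0.0633). With summits within 50 bp of each other in the top sets the odds ratios were 0.812 and 0.781 (Fisher's exact test, adjusted p = 0.294 and 0.285).

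The peaks' own strength moved with that support. Of the deep intron peaks 16.2% were in the strongest of 4 equal classes of thresholded peaks by signal and 31.96% in the weakest, against 27.7% and 22.6% of promoter peaks. Within the strongest class all replicates held 93.6% of 47 deep intron peaks and 90.5% of promoter peaks, and within the next 57.3% of 75 and 53.1%. In the third class the shares were 14.5% of 76 deep intron peaks and 14.5% of promoter peaks. In the weakest class 0 of 93 deep intron peaks were held by all replicates, against 0.41% of promoter peaks. Replicate 3 held fewer deep intron than promoter peaks in the second class (69.3% against 83.97%), in the third (48.7% against 64.0%) and in the weakest (27.96% against 41.2%). Replicate 1 held more of them in the same 3 classes (89.3% against 77.7%, 65.8% against 57.7% and 47.3% against 36.5%). Replicate 2 held more in the first 2 of these (93.3% against 86.5% and 76.3% against 64.6%) and fewer in the weakest (41.9% against 45.9%). The part of signal strength in the lower support was not tested beyond these values.

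The deep intron peaks lay in 204 of the 1375 protein-coding genes with at least 1000 bp of deep intron sequence (14.8%), and most hosts had a single peak. One peak was found in 145 genes, 2 in 37, 3 in 14 and 4 or more in 8, while even placement by length gives 167.9, 30.83, 7.38 and 6.02 genes. Hosts were longer than the genes without such a peak, with a median of 20.22 kb of deep intron sequence against 8.49 kb. A thresholded promoter peak was present at 98 of the 204 hosts (48.0%), against 286 of the 1171 genes without a deep intron peak (24.4%), and the median number of annotated start sites was 2 in hosts and 1 in the others. These differences in promoters were not corrected for gene length.

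After correction for the length of deep intron sequence, 6 genes held more peaks than expected (0.436% of the genes tested; one-sided exact Poisson test, Benjamini-Hochberg adjustment over 1375 genes, and 65 genes had an unadjusted p under 0.05). They were sbb, tara, rdx, ftz-f1, simj and Raf, and they carried 36 deep intron peaks (12.4%), of which all replicates held 15. All 6 passed the same test in the list of replicate 2, 5 of 6 in that of replicate 1 (without Raf) and 5 of 6 in that of replicate 3 (without ftz-f1). In all, 8, 8 and 16 genes passed in the lists of replicates 1, 2 and 3. The thresholded list was derived from the same replicates, so their lists are not independent of it. Peaks in 1 gene are not independent, so these p-values serve as a screen.

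In sbb 8 peaks were found where 0.375 were expected (ratio 21.3, exact Poisson test, adjusted p = 4.8e-06). The lists of replicates 1, 2 and 3 placed 8, 6 and 8 peaks of their top sets there. The 8 summits lay 5.32 to 26.8 kb from the gene's 5' end, with signals of 137.1 to 1164 and a median of 175.3, so 1 site was far stronger than its neighbours. In tara 7 peaks were found where 0.17 were expected (ratio 41.1, exact Poisson test, adjusted p = 9.7e-07), and the replicates placed 10, 8 and 8 there. Its first 2 summits, at 10.55 and 11.3 kb from the 5' end, had signals of 551.2 and 775.1, and the other 5, at 22.17 to 28.12 kb, had 153.1 to 404.3. Between these 2 groups lies a start site, 5863 bp from the summit at 11.3 kb and 5005 bp from that at 22.17 kb. The 5000 bp limit leaves out summits on both sides of it, so a gap of 10 kb was fixed by the rule.

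The gene rdx, also called roadkill, encodes a BTB adaptor that targets the Hedgehog pathway's transcription factor Ci for degradation. It held 7 peaks where 0.36 were expected (ratio 19.4, exact Poisson test, adjusted p = 5.3e-05), and 5, 6 and 4 in the replicates. In ftz-f1, which encodes a nuclear receptor that acts with the segmentation factor Fushi tarazu and in the ecdysone response, 6 peaks were found where 0.276 were expected (ratio 21.7, exact Poisson test, adjusted p = 1.7e-04). The top sets of replicates 1 and 2 placed 5 and 6 peaks in ftz-f1 and that of replicate 3 placed 1. Weaker peaks of replicate 3 in this gene, below its top set, are not in that count. All peaks in ftz-f1 were weak, with signals of 135.2 to 201.9.

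Both remaining genes held 4 peaks each. In simj 0.162 were expected (ratio 24.7, exact Poisson test, adjusted p = 0.00691), and the replicates placed 5, 5 and 3 peaks there. In Raf, which encodes the kinase that carries the signal of receptor tyrosine kinases from Ras to MEK, 0.177 were expected (ratio 22.6, exact Poisson test, adjusted p = 0.00818), and the replicates placed 3, 5 and 3. The 4 summits in Raf lay 5.23 to 10.97 kb from the 5' end with signals of 169.3 to 333.5.

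**Figure D3:**
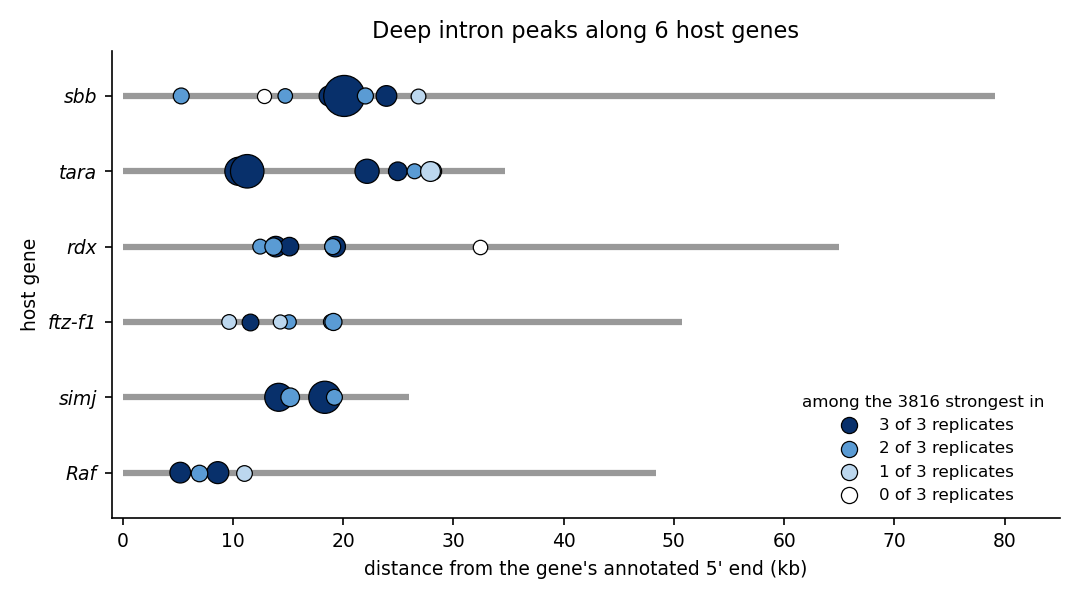
Deep intron peaks along the 6 genes past the length-corrected test, drawn to scale from the annotated 5' end of each gene (grey line, the gene's length), with the circle's area proportional to the signal and its colour giving the number of replicates that held the peak in their top sets. Summits can lie only outside exons and over 5000 bp from every start site, so not all of the grey line was open to them. In tara the summits lie at 10.55 and 11.3 kb and at 22.17 to 28.12 kb, on either side of a start site.

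The calls depend on how close summits are counted and on what is taken as even placement. With summits within 2000 bp of each other counted once, 0 genes passed the exact Poisson test (57 with an unadjusted p under 0.05), and sbb kept 4 sites where 0.317 were expected (adjusted p = 0.204) and tara 3 where 0.144 were expected (adjusted p = 0.204). With the number of candidates in each gene in place of its length, 2 genes passed an exact binomial test, sbb and tara, each with an adjusted p of 0.0334. The density of deep intron peaks itself fell with the gene's deep intron length, at 26.4 per Mb in genes with 1 to 5 kb, 20.9 with 5 to 10 kb, 15.3 with 10 to 20 kb, 12.8 with 20 to 50 kb and 5.07 with 50 kb or more. In the last class it was 9.03 per Mb once the 22 genes without candidates were left out, which kept the same 6 calls.

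**Figure D4:**
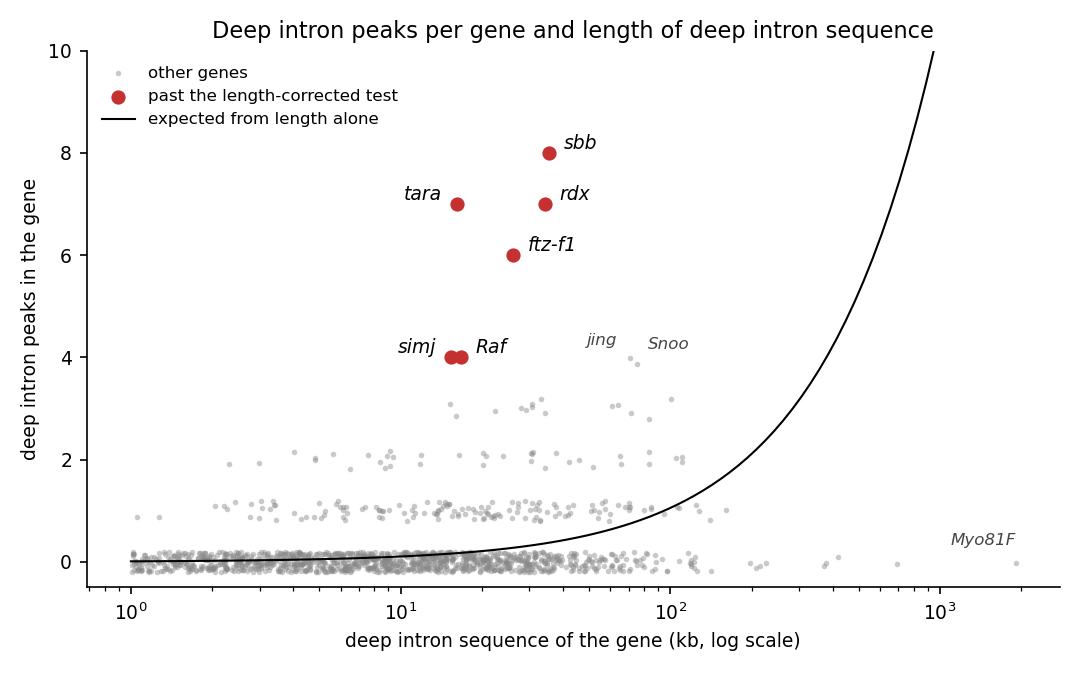
Number of deep intron peaks in each of 1375 genes against the length of the gene's deep intron sequence on a log axis, with the number expected from length alone (line) and points of equal count spread vertically so that they can be told apart. The 6 genes past the test (red) hold 4 to 8 peaks where at most 0.375 were expected, jing and Snoo hold 4 at 70.7 and 75.3 kb, and Myo81F holds 0 at 1904.7 kb.

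Other hosts with 3 or 4 peaks did not pass. The gene jing, which encodes a zinc-finger factor of border cell and midline development, held 4 where 0.746 were expected (exact Poisson test, adjusted p = 0.313), with 5, 1 and 0 in the replicates. Snoo, which encodes the Ski family regulator of TGF-beta signalling, held 4 where 0.795 were expected (exact Poisson test, adjusted p = 0.37), with 5, 5 and 6 in the replicates. The gene crp held 3 where 0.161 were expected (exact Poisson test, adjusted p = 0.0947), and cv-2, which encodes an extracellular protein that binds bone morphogenetic proteins, 3 where 0.17 were expected (adjusted p = 0.0986). NK7.1, a homeobox gene, held 3 where 0.236 were expected (exact Poisson test, adjusted p = 0.168), and MESR3 3 where 0.294 were expected (adjusted p = 0.232).

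Genes that encode transcription factors and signalling proteins held most of the peaks in the 7 lists of gene functions. Of 53 transcription factor genes with enough deep intron sequence, 20 held a peak (37.7%, against 14.8% of all genes tested), where length gives 11.87 genes. They held 45 peaks where 14.84 were expected, and 2 passed the test, sbb and ftz-f1. Of 30 signalling and growth genes, 11 held a peak where length gives 5.33 genes, with 25 peaks where 6.53 were expected, and 1 passed, rdx. Besides rdx these were led by dnc, which encodes the cAMP phosphodiesterase Dunce, and cv-2, with 3 peaks each. Among 11 chromatin regulator genes 4 held 1 peak each where 0.378 were expected in all, and 0 passed. These were Mi-2 (456.4), the Polycomb group gene Psc (207.5), trx, which encodes the histone methyltransferase Trithorax (200.5), and HDAC4 (154.3). The count of 4 was small, and HDAC4 was named after its value was seen.

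Genes for RNA-binding proteins, for axon guidance and adhesion and for ion channels held fewer peaks than their length gives. The first 2 lists had a peak in a larger share of genes than the 14.8% of all genes tested, which is not corrected for length. By length 7.04 and 14.78 of their genes were expected to hold a peak, more than the 6 and 9 that did. RNA-binding protein genes held 6 peaks where 11.5 were expected, 1 each in 6 of 17 genes (35.3%), among them the translational repressor genes pum and brat and the splicing regulator gene how. Axon guidance and adhesion genes held 12 where 21.3 were expected, in 9 of 48 genes (18.75%), with 3 in caps, which encodes a leucine-rich repeat adhesion protein, 2 in the receptor phosphatase gene Ptp10D and 1 in the Netrin receptor gene fra. Channel and receptor genes held 3 where 9.28 were expected, in 3 of 34 genes (8.82%), in the potassium channel gene Elk, the acetylcholine receptor gene nAChRalpha6 and the calcium channel gene Ca-alpha1T. These 3 lists hold long genes, with medians of 39.3, 28.6 and 22.6 kb of deep intron sequence against 9.37 kb over all genes tested. Their densities of 5.498, 5.954 and 3.41 peaks per Mb stood beside 12.8 per Mb in all genes with 20 to 50 kb, the class of these medians. In genes with 50 kb or more it was 5.07 per Mb, or 9.03 without the 22 genes that held no candidate. Cytoskeleton, muscle and polarity genes held 7 where 3.11 were expected, in 5 of 22 genes, led by Zasp52, which encodes a protein of muscle Z-discs, scrib, a cell polarity gene, and pyd, which encodes a junction scaffold. None of the genes in these 4 lists passed, and the median ratio of observed to expected peaks was 0 in each of the 7 lists and over all 1375 genes. The lists were chosen with earlier results of these data known, and their counts were not tested.

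At the summit, the Forkhead word TGTTTAC was commoner in deep intron peaks than in candidates of the same class. It was found within 50 bp of the summit, on either strand, in 24 of 291 deep intron peaks (8.25%), against 136 of 4572 candidates (2.97%), an odds ratio of 2.93 (95% interval 1.87 to 4.604; Fisher's exact test, adjusted p = 6.2e-04 over 29 words). Of the 29 words 2 differed (6.9%), and 6 had an unadjusted p under 0.05. In the replicates' own lists the word was in 5.85%, 8.16% and 8.92% of the deep intron peaks in the top sets (7.64% ± 1.60, SD, n = 3), against 2.92%, 3.21% and 2.52% of the remaining ones (2.88% ± 0.346). The 3 strong sets all lay above the 3 weak sets (exact sign-flip test, p = 0.25). With GC content held in 5 strata the odds ratio was 2.57 (Mantel-Haenszel test, n = 291 deep intron peaks, adjusted p = 0.00118).

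Deep intron peaks and thresholded intron peaks nearer to start sites did not differ in this word past the threshold of the test. It was in 7.88% of the 914 nearer peaks (odds ratio 1.05, 95% interval 0.649 to 1.70, Fisher's exact test, adjusted p = 1) and in 4 of the 75 distant peaks between genes. In promoter peaks it was rarer, at 8.25% in deep introns against 3.74% in promoters (odds ratio 2.31, 95% interval 1.44 to 3.71, Fisher's exact test, adjusted p = 0.0288). Over all candidates and thresholded peaks pooled, 3.46% of such windows held it. The 24 deep intron peaks with the word lay in 24 different hosts or overlapping host pairs. Among them were spen, CG13917, Raf and sbb, where it marked a weak site (signal 150.1) and not the strongest. Their median signal was 178.4, close to 177 for deep intron peaks without it.

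In the pooled list the share with the word fell along the ranking. With the thresholded list cut into 2 equal bands by rank, it was 9.02% of 122 deep intron peaks in the upper band and 7.69% of 169 in the lower. Below the threshold it was 5.62% of 409 candidates in the next band of ranks, as long as the thresholded list, 4.04% of 1187 in the band down to rank 15000 and 2.18% of 2976 in the rest down to rank 30000. In the same 5 bands of replicate 1 it was 6.25%, 5.58%, 5.12%, 2.73% and 2.60%, with the largest step below the threshold. Replicate 2 gave 11.48%, 5.81%, 5.91%, 3.69% and 2.49%, with the largest step inside its top set, and replicate 3 gave 10.19%, 8%, 3.26%, 2.85% and 2.27%, with the largest step at the threshold. Against the 409 candidates directly below the threshold alone, deep intron peaks did not differ past the threshold of the test (8.25% against 5.62%, odds ratio 1.51, Fisher's exact test, adjusted p = 0.923).

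A word recognised by Pleiohomeotic, a Polycomb group DNA-binding protein, went the other way before GC content was considered. GCCAT was in 13.4% of deep intron peaks, against 20.9% of candidates of the same class (odds ratio 0.585, 95% interval 0.415 to 0.826, Fisher's exact test, adjusted p = 0.0233). Within GC strata the odds ratio was 0.763 (Mantel-Haenszel test, n = 291 deep intron peaks, adjusted p = 0.57). Against the 409 candidates directly below the threshold it was 1.09 (Fisher's exact test, adjusted p = 1). In replicates 1, 2 and 3 the word was in 13.2%, 13.3% and 18.6% of the strongest deep intron peaks, against 22.2%, 20.2% and 22.5% of the remaining ones. GAGAG, the word of GAGA factor, was in 15.5% of deep intron peaks and 11.2% of candidates (odds ratio 1.46, Fisher's exact test, adjusted p = 0.139). Within GC strata its odds ratio was 1.82 (Mantel-Haenszel test, n = 291 deep intron peaks, adjusted p = 0.0104). In the lists of replicates 1, 2 and 3 GAGAG was in 14.2%, 10.5% and 15.1% of the strongest deep intron peaks, against 12.2%, 11.4% and 13.3% of the remaining ones, so replicate 2 had the opposite direction. TTTATG, a word of Caudal and Abdominal-B named after its value was seen, was in 8.59% of deep intron peaks and 13.3% of candidates (odds ratio 0.612, Fisher's exact test, adjusted p = 0.139). Its odds ratio within GC strata was 0.529 (Mantel-Haenszel test, n = 291 deep intron peaks, adjusted p = 0.0356), and in replicate 2 it was in 14.97% of the strongest against 13.8% of the remaining ones.

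Words of 6 bases chosen on arms 2L, 2R and 4 without a factor in mind were tested on 3L, 3R and X. The first was GTAAAC, 6 of the 7 bases of the Forkhead word. On the arms used to choose it, 17.2% of 116 deep intron peaks held it, against 5.37% of candidates, values that the choice favours. On the arms tested it was found in 15 of 175 deep intron peaks (8.57%), against 5.75% of candidates (odds ratio 1.54, Fisher's exact test, adjusted p = 0.135). Whether the share of the Forkhead word itself differed between arms was not tested. TTATAA was in 9.14% against 4.63% (odds ratio 2.07, Fisher's exact test, adjusted p = 0.0503) and TGTAAA in 13.1% against 8.46% (odds ratio 1.64, adjusted p = 0.0576). By Fisher's exact test 0 of these 3 passed after adjustment and 2 had an unadjusted p under 0.05. The choice of words and their test used different arms of the same libraries.

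Deep intron peaks were poorer in G and C than candidates of the same class. The median GC content of the summit and 50 bp on either side was 34.65% in deep intron peaks, with quartiles of 28.71% and 40.59%, and 41.58% in candidates, with quartiles of 35.64% and 47.52%. A GC content above 41.58%, the median of all pooled candidates, was found in 64 of 291 deep intron peaks (22.0%), against 2246 of 4572 candidates (49.1%), an odds ratio of 0.292 (95% interval 0.220 to 0.388; Fisher's exact test, p = 2.9e-20). Against the 409 candidates directly below the threshold the odds ratio was 0.598 (Fisher's exact test, p = 0.00364). Replicates 1, 2 and 3 had 25.2%, 19.1% and 36.1% of such peaks among the deep intron peaks of their top sets (26.8% ± 8.604, SD, n = 3), against 52.4%, 41.0% and 52.3% of the remaining ones (48.6% ± 6.55; exact sign-flip test, p = 0.25). Replicate 3 had the richest strong peaks, still below its own remainder. Thresholded intron peaks nearer to starts had a median of 34.65% too (odds ratio for a high GC content 0.895, 95% interval 0.652 to 1.23, Fisher's exact test, adjusted p = 0.526). Promoter peaks were richer than deep intron peaks, which exceeded the limit in 22.0% of cases against 39.8% of promoter peaks (odds ratio 0.426, Fisher's exact test, adjusted p = 4.6e-09).

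**Figure D5:**
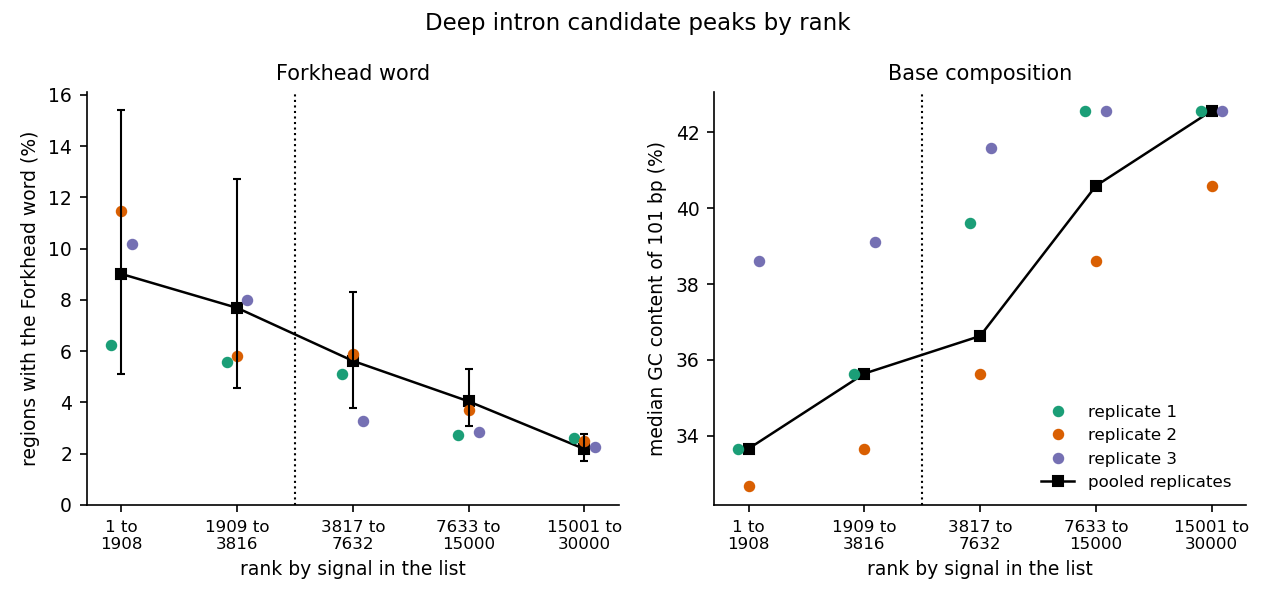
Share of deep intron regions with the Forkhead word within 50 bp of the summit (left, pooled values with Wilson 95% intervals) and their median GC content (right, axis not starting at 0), in bands of rank of the pooled list (squares) and of each replicate's list (points), with the threshold dotted. The pooled word share runs from 9.02% to 2.18% and the pooled GC median from 33.66% to 42.57% as rank goes from strongest to weakest.

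Deep intron peaks lay in first introns more often than candidates of the same class. Of 291 deep intron peaks 155 were inside the first intron of at least 1 transcript (53.3%), against 2000 of 4572 candidates (43.7%), an odds ratio of 1.47 (95% interval 1.16 to 1.86; Fisher's exact test, p = 0.00187). First introns made up 30.5% of deep intron sequence. The median distance to a start site was 8252 bp in deep intron peaks and 9595 bp in the candidates, and the shares were not matched for distance. Of intron peaks nearer to starts 79.98% lay in a first intron, a larger share than in deep intron peaks, and this difference was not tested. The replicates gave 51.1%, 53.1% and 53.5% among their strongest deep intron peaks, against 39.3%, 45.9% and 43.6% among the remaining ones (exact sign-flip test, p = 0.25). The call was lost against the 409 candidates directly below the threshold, with an odds ratio of 1.10 (Fisher's exact test, p = 0.54). In sbb, tara and simj all summits lay in a first intron of the gene, and in rdx, ftz-f1 and Raf none did.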

How the data were processed

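Chromatin immunoprecipitation followed by sequencing was done on embryos in 3 biological replicates. Per the labels, chromatin was sonicated to 200 to 800 bp. The authors deposited lists of candidate peaks called per replicate and on all replicates together, plus a thresholded list of reproducible peaks, each on 2 assemblies and with a control per the file headers. For the aligner, the caller and the threshold, names and versions were not given in the sources used here. The deposited signal value of each peak, whose unit and scaling the authors do not state, served only to rank peaks within a list. The deposited q-value of each peak, as its −log10, and the dm3 lists were not used.

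All lists were read on dm6 arms 2L, 2R, 3L, 3R, 4 and X. Start sites, exons and 13945 protein-coding genes came from Ensembl release 115 (BDGP6.54), whose coordinates are those of dm6. Transposable element insertions were not counted as genes. Sequences came from the RefSeq genome of the same assembly. For 2 of the strongest sites the sequence is not reported here. Pooled candidates that overlapped a thresholded peak (1101) were left out, which left 25083. A summit within 100 bp counted as shared, and each replicate's top set was its 3816 strongest peaks, the size of the thresholded list. A gene's expected number of peaks was its deep intron length times the overall density. Of 29 words both strands were searched within 50 bp of the summit, and no word contains the Forkhead word. Words of 6 bases were ranked among those in at least 10% of members. GC strata were 5 equal classes. Shares carry Wilson 95% intervals and the call threshold was 0.05. The Poisson and Fisher tests were tried on simulated data with independent counts, which cannot show how clustered peaks affect the calls. Python 3.11.15, scipy 1.17.1 and statsmodels 0.14.6 were used.

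The members and lists were chosen with earlier results of these data known. The rule for named genes took the hosts of the 15 strongest members, the 12 hosts with most members, the hosts past the test, those at the distance limit and up to 3 genes of each list. Alternatives were other distances, windows, numbers of peaks, gene models, comparison sets and replicates.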

Additional observations from a re-analysis of the deposited data

How the results depend on the processing

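No paired analysis was possible because all replicates form 1 group, so no block across groups exists, and the sign-flip tests use differences within each replicate. The lower passing share, the lower GC content and the higher share of first introns kept their direction under each alternative tried. Against the candidates directly below the threshold the odds ratio of the passing share was 0.620 in place of 0.37 and that of GC content 0.598 in place of 0.292. The difference between the strongest and remaining peaks of the replicates in deep intron share, -9.52 percentage points, was -11.3 with 1000 peaks per replicate, -8.46 with sets enlarged to 2 times the thresholded list, and -9.65 to -9.36 when a replicate was left out. That in GC share, -21.8 points, was -24.6 to -19.1. The odds ratio for first introns was 1.10 against the candidates directly below the threshold. Support by all replicates was the least stable result. Against nearer intron peaks its odds ratio was 0.812 with summits within 50 bp, 0.683 with 1000 peaks per replicate, 0.912 with the enlarged sets, 1.30 with full lists, and 0.641 to 0.911 when a replicate was left out. Against promoter peaks it was 0.781 within 50 bp, 1.01 with the enlarged sets, 1.45 with full lists, and 0.586 to 1.06 when a replicate was left out, above 1 without replicate 3. Against distant peaks between genes it was 0.916 within 50 bp, 0.736 within 200 bp and 0.966 to 1.08 when a replicate was left out. Genes past the length-corrected test numbered 13 at 2000 bp from start sites, 3 at 10000 bp, 3 for the stronger of 2 equal bands of thresholded peaks, 2 by candidates, 0 with neighbours counted once and 16 in the list of replicate 3. The number of words that differed was 4 at 2000 bp, 1 at 10000 bp, 1 for the stronger band, 1 with transposable element insertions counted as genes, 0 against the next candidates (2 with an unadjusted p under 0.05, Fisher's exact test) and 1 in replicate 3. TGTTTAC had odds ratios of 1.51 against the next candidates and 2.06 in replicate 1, both short of the threshold, and passed under the other alternatives. GCCAT missed the threshold at 0.721 within 25 bp, 0.493 at 10000 bp, 0.490 for the stronger band, 0.599 with insertions, 0.763 in GC strata and 0.790 in replicate 3, and was 1.09 against the next candidates. With the arms swapped, and within 100 bp of the summit, 3 other words were chosen each time, of which 1 passed (AATATT with the arms swapped and ATCTTA within 100 bp), and the 3 words reported were not tested again. Counting insertions as genes, GC strata for first introns and leaving out long genes without candidates were alternatives chosen after seeing the data. The cause of these changes was not tested.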
